A study of Homo sapiens with 4 samples.

Results

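A set of 10 genes of blood vessel growth was followed in 786-O, a line of human clear cell kidney cancer in which functional VHL protein is missing. They were taken by symbol: the VEGF family ligands VEGFA, VEGFB, VEGFC and PGF, the peptide hormone gene ADM, the growth factors FGF2, PDGFA and PDGFB, and the coreceptors NRP1 and NRP2. All 10 were found among the 59409 gene symbols measured, and all 10 were above 1 TPM (transcripts per 1000000, a level corrected for gene length) in every library. The comparison asked how their mRNA differs when DEK, a chromatin-associated protein, is knocked out.

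There were 2 DEK knockout libraries and 2 negative control libraries of polyadenylated RNA. The parent of the knockouts was a clone carrying Cas9 from a lentivirus. It was infected with guide viruses against DEK and sorted into single cells, and the columns of the control libraries are named for Cas9. The labels give the genotype of the controls as wild type. They do not name the clone behind a given knockout library, and do not state that replicates were grown apart. All p-values thus rest on the spread between 4 libraries and may reflect technical variation. What a knockout clone carries of its own cannot be told apart from the loss of DEK.

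Growing tissue attracts vessels by secreting ligands that act on endothelial cells. VEGFA acts through the receptors FLT1 and KDR, PGF and VEGFB act through FLT1, and VEGFC acts mainly through FLT4 on lymphatic endothelium. The neuropilins are coreceptors that bind VEGF ligands and class 3 semaphorins, and the PDGFs act on pericytes and fibroblasts. In clear cell renal carcinoma, loss of VHL stabilises the hypoxia-inducible factors (HIF), of which VEGFA and ADM are known targets, without low oxygen.

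DEK was examined first. The knockouts had 31.4 and 15.7 TPM of it, against 95.02 and 76.3 TPM in the controls. The log2 fold change on the log2(TPM + 1) scale, used for all fold changes in log2 here, was -1.89 (SE 0.33, limma adjusted p = 0.030). The call was lost without control 1 (adjusted p = 0.14), without control 2 (0.10), with no filter on low values (0.096) and with a variance prior without a trend (0.056). Estimated depth was 35.3 to 39.5 in units of 1000000 reads. All 9 renal epithelial markers reached 1 TPM in some library, led by VIM, and PAX8 was at 140 and 160.4 TPM in the knockouts against 153 and 142 TPM in the controls. Of those markers 3 passed the test, with PAX2 and CDH6 lower and KRT18 higher in the knockouts. Of 9 endothelial markers 2 reached 1 TPM, TIE1 and ESAM. The endothelial sum was 1.89 and 4.98 TPM in the knockouts against 0.721 and 1.10 TPM in the controls, and the defining genes PECAM1, CDH5 and VWF stayed at or below 0.0362 TPM. Of 10 pericyte and fibroblast markers 4 reached 1 TPM, with a sum of 49.7 and 19.8 TPM in the knockouts against 15.1 and 15.4 TPM in the controls, most of it MCAM. Of 6 leukocyte markers 0 reached 1 TPM, and their sums of 0.503 and 0.352 TPM in the knockouts overlapped the 0.300 and 0.627 TPM in the controls. The renal, endothelial and pericyte and fibroblast sums were higher in both knockouts, and their part in the results was not tested. Nearly all of the renal sum was VIM, at 8046 and 8346 TPM in the knockouts against 7352 and 7215 TPM in the controls. MCAM was at 45.1 and 16.0 TPM in the knockouts against 10.8 and 10.6 TPM in the controls. The direction of the renal sum follows VIM and that of the pericyte and fibroblast sum follows MCAM, not the lists as a whole. In such bulk RNA, the number of cells that express a gene and the RNA of it per cell cannot be told apart.

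Of the 10 genes 5 rose in the knockouts and 0 fell at a limma adjusted p under 0.05, with adjustment over all genes tested. Those that rose were PGF, VEGFC, VEGFA, ADM and NRP2. Across all 15815 genes tested 17.7% passed in either direction, 9.06% upwards (1433 genes) and 8.67% downwards (1371 genes). With rescaling by median ratios the split was 1588 upwards and 955 downwards, and with chromosome medians subtracted it was 1736 and 1085. The 10 genes were chosen with earlier results of these data known, so setting their count against all genes is not a test. The median log2 fold change was 0.25 over the 10 genes and -0.06 over all genes tested. In 7 of the 10 genes the libraries of the 2 groups did not overlap, against 68.3% of all genes tested. The other 3 genes, PDGFA, PDGFB and NRP1, had knockout values on both sides of a control value. At a stricter adjusted p under 0.01, PGF alone of the 10 passed.

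**Figure D1:**
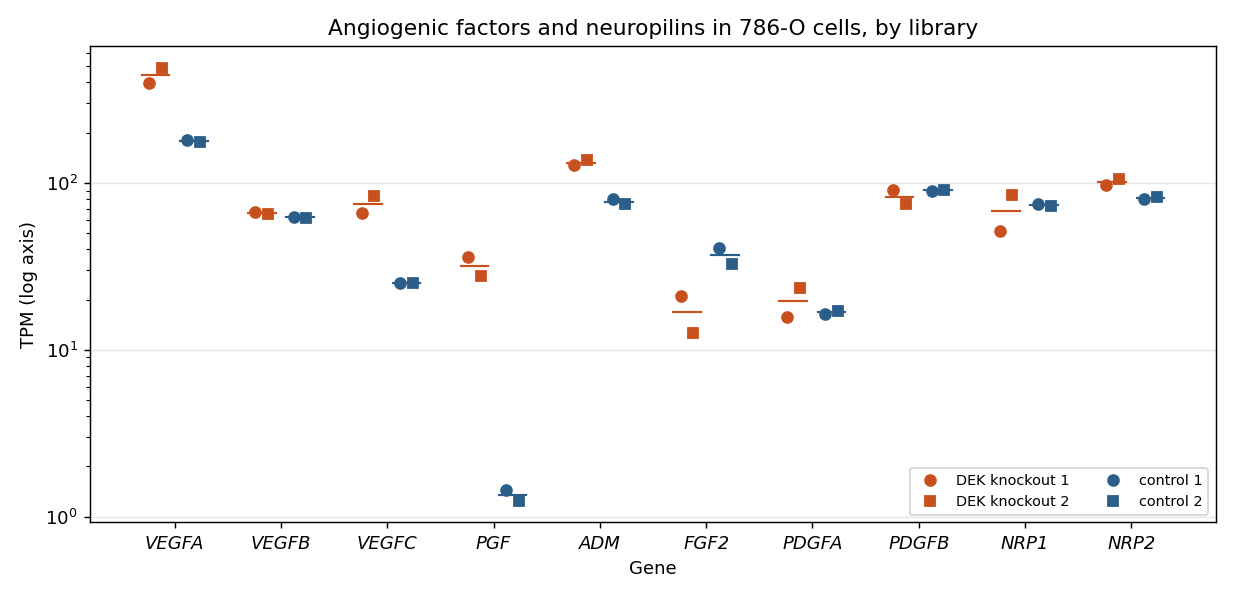
Level of each of the 10 genes in TPM on a log axis, with DEK knockout libraries in orange left of control libraries in blue, circles for replicate 1, squares for replicate 2 and a bar at each group mean (n = 2). PGF lies between 27.7 and 35.9 TPM in the knockouts and below 1.45 TPM in the controls, while VEGFB differs little between any libraries.

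**Figure D2:**
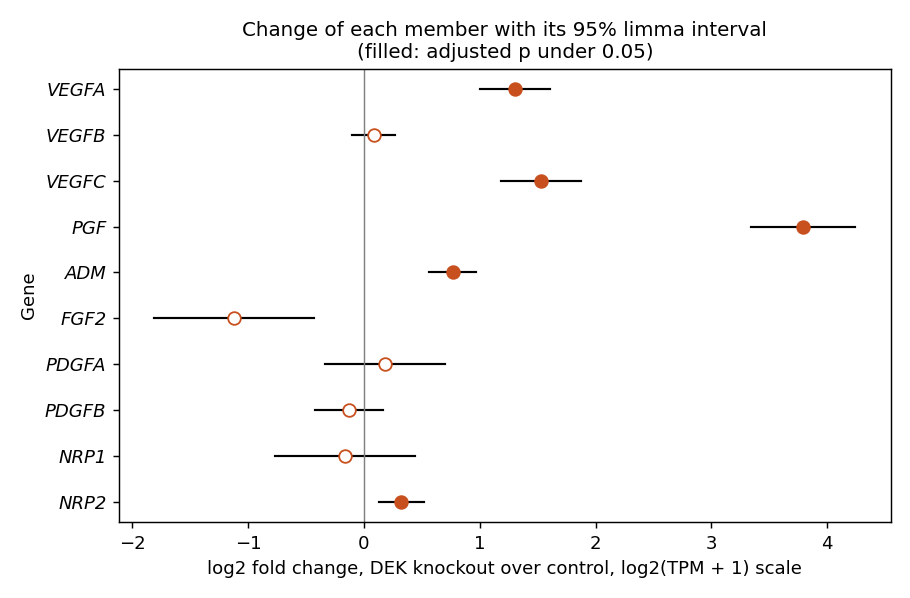
Log2 fold change of each gene, DEK knockout over control, on the log2(TPM + 1) scale, with the 95% limma interval as a bar and filled points for adjusted p under 0.05. PGF stands at 3.79, and the intervals of VEGFB, PDGFA, PDGFB and NRP1 include 0.

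PGF, placental growth factor, had the largest change of the set. It is on the minus strand of chromosome 14 from 74941834 to 74955784 (GRCh38), and no other annotated gene overlaps it. It was at 35.9 and 27.7 TPM in the knockouts, against 1.44 and 1.25 TPM in the controls. It was thus the lowest of the 10 genes in both controls and was in eighth place in both knockouts. The mean was 31.8 ± 5.86 TPM in the knockouts and 1.35 ± 0.138 TPM in the controls (SD, n = 2 each), a 23.6-fold ratio, and the log2 fold change was 3.79 (SE 0.17, 95% interval 3.35 to 4.24, limma adjusted p = 0.0057). Among the 15815 genes tested its rise was number 12 by size. With the exon lengths of the annotation used here, the control values correspond to about 87.1 and 78.1 reads. PGF kept its call under all 15 alternatives, with a highest adjusted p of 0.041.

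VEGFC, the lymphatic member of the family, also rose. It is on the minus strand of chromosome 4 from 176683538 to 176792727. Its level was 65.8 and 83.6 TPM in the knockouts, against 25.0 and 25.0 TPM in the controls. Both knockouts were thus well above the controls, which were nearly equal. The mean was 74.7 ± 12.6 TPM in the knockouts and 25.0 ± 0.00416 TPM in the controls (SD, n = 2 each), a 2.99-fold ratio (log2 fold change 1.53, SE 0.13, 95% interval 1.19 to 1.88, limma adjusted p = 0.0125). Without control 1 the adjusted p was 0.062 and without control 2 it was 0.069, with log2 fold changes of 1.53 in both.

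VEGFA, the main ligand of endothelial growth, was the most abundant of the 10 genes in every library. It is on the plus strand of chromosome 6 from 43770184 to 43786487. It was at 395 and 491 TPM in the knockouts, against 181 and 175 TPM in the controls. The groups were far apart, with the knockouts differing from each other more than the controls did. The mean was 443 ± 67.8 TPM in the knockouts and 178 ± 3.68 TPM in the controls (SD, n = 2 each), a 2.49-fold ratio (log2 fold change 1.30, SE 0.12, 95% interval 1.00 to 1.61, limma adjusted p = 0.0127). The adjusted p was 0.062 without control 1 and 0.069 without control 2. By mean level VEGFA was above 98.2% of tested genes in the knockouts and 94.6% in the controls.

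The noncoding gene AL136131.3, named here after its values were seen, is annotated on the opposite strand inside an exon of VEGFA. It is a single exon of 188 bases, chromosome 6 from 43770429 to 43770616, and all 188 are shared with VEGFA. It was at 17.2 and 38.8 TPM in the knockouts, against 7.36 and 8.11 TPM in the controls (log2 fold change 1.62, limma adjusted p = 0.0492). That call lies close to the threshold, and the knockouts were further apart than the controls. Read numbers were not estimated for this short gene. Whether counting used strand is not stated, so reads of VEGFA and of AL136131.3 over those bases cannot be told apart.

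VEGFB, a ligand of FLT1, is on chromosome 11 from 64234538 to 64238793 on the plus strand. Its level was 67.1 and 65.1 TPM in the knockouts, against 62.9 and 61.6 TPM in the controls. Both knockouts were slightly above both controls, by a 1.06-fold ratio of means. The log2 fold change was 0.09 (SE 0.07, 95% interval -0.10 to 0.27) and did not pass the test (limma adjusted p = 0.43).

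The 4 VEGF family ligands summed to 564 and 667 TPM in the knockouts, against 269.9 and 263 TPM in the controls. VEGFA made up 70.1% and 73.6% of that sum in the knockouts and 66.9% and 66.6% in the controls. The share of VEGFB was 11.9% and 9.75% in the knockouts, below its 23.3% and 23.4% in the controls. PGF took 6.37% and 4.14% in the knockouts and 0.535% and 0.474% in the controls. The share of VEGFC was 11.7% and 12.5% in the knockouts and 9.26% and 9.49% in the controls. These shares are per transcript length, and the lengths the authors divided by are not stated. For VEGFA the choice matters, because its annotated exons of all isoforms, merged where they overlap, cover 14431 bases.

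**Figure D3:**
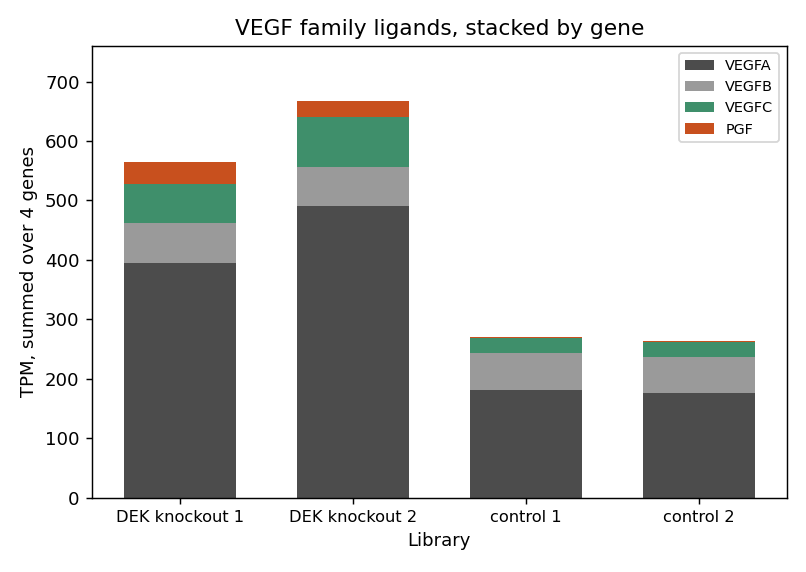
Sum of the TPM of VEGFA, VEGFB, VEGFC and PGF in each library, stacked by gene, with the DEK knockouts left of the controls. The sum is 564 and 667 TPM in the knockouts and 269.9 and 263 TPM in the controls, and the PGF segment is visible in the knockouts but under 1.45 TPM in the controls.

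ADM, which encodes the vasodilator peptide adrenomedullin, rose to a smaller extent. It is on the plus strand of chromosome 11 from 10304680 to 10307397. It was at 127 and 137 TPM in the knockouts, against 79.7 and 74.4 TPM in the controls. The libraries of each group were close together and the groups did not overlap. The mean was 132 ± 6.67 TPM in the knockouts and 77.0 ± 3.78 TPM in the controls (SD, n = 2 each), a 1.71-fold ratio (log2 fold change 0.77, SE 0.08, 95% interval 0.56 to 0.97, limma adjusted p = 0.0147). Without control 1 the adjusted p was 0.099, and without control 2 it was 0.102. ADM was the second highest of the 10 genes in both knockouts and the fourth highest in both controls.

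FGF2, basic fibroblast growth factor, was lower in both knockouts but did not pass the test. It is on the plus strand of chromosome 4 from 122826708 to 122898236. Its level was 21.1 and 12.5 TPM in the knockouts, against 41.0 and 32.7 TPM in the controls, and the groups did not overlap. With the annotation's exon length these values correspond to 1328 and 884 reads in the knockouts and 2808 and 2325 reads in the controls. The mean was 16.8 ± 6.08 TPM in the knockouts and 36.8 ± 5.84 TPM in the controls (SD, n = 2 each), a 2.19-fold lower level. The log2 fold change was -1.12 (SE 0.26, 95% interval -1.81 to -0.43, limma adjusted p = 0.0503). The log2 fold change of FGF2 was -1.48 without knockout 1 and -0.77 without knockout 2. Each of those fits has a lone knockout library, whose spread was not measured. FGF2 passed with the replicate number as a block (adjusted p = 0.017). Without control 1 its adjusted p was 0.22 and without control 2 it was 0.14. NUDT6, on the opposite strand, shares 804 exon bases with FGF2 and was at 10.4 and 14.1 TPM in the knockouts against 11.4 and 10.97 TPM in the controls (adjusted p = 0.68). The values of both genes are uncertain over the shared bases.

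The chain genes of platelet-derived growth factor did not pass the test. PDGFA is on the minus strand of chromosome 7 from 497258 to 520296, and PDGFB on the minus strand of chromosome 22 from 39223359 to 39244751. PDGFA was at 15.8 and 23.3 TPM in the knockouts, against 16.4 and 17.1 TPM in the controls. Knockout 1 was thus just below the controls and knockout 2 above them (log2 fold change 0.18, SE 0.20, 95% interval -0.33 to 0.70, limma adjusted p = 0.54). PDGFB was at 91.0 and 74.5 TPM in the knockouts, against 89.2 and 91.3 TPM in the controls. Knockout 1 was level with the controls and knockout 2 below them (log2 fold change -0.13, SE 0.11, 95% interval -0.43 to 0.16, limma adjusted p = 0.45). Without knockout 1 PDGFA was higher (log2 fold change 0.45, adjusted p = 0.026) and PDGFB lower (-0.27, adjusted p = 0.025), and both calls then rest on knockout 2 alone.

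Chromosomes of these genes differed in their overall level. The 388 tested genes of chromosome 22 had a median log2 fold change of 0.22, and PDGFB was 0.35 below that median. The 751 tested genes of chromosome 7 had medians of -0.18 in knockout 1 and 0.02 in knockout 2. With the median of each chromosome subtracted from each library, PDGFB (log2 fold change -0.35, adjusted p = 0.12) and PDGFA (0.26, adjusted p = 0.25) did not pass. For the other 8 genes the chromosome medians lay between -0.18 and 0.01.

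The neuropilin coreceptors differed from each other in how the knockouts behaved. NRP2, on the plus strand of chromosome 2 from 205681990 to 205798133, was at 97.8 and 105.7 TPM in the knockouts against 80.2 and 81.9 TPM in the controls. Both knockouts were above both controls, by a 1.26-fold ratio of means (log2 fold change 0.32, SE 0.07, 95% interval 0.13 to 0.52, limma adjusted p = 0.0482). That call lies close to the threshold and was lost under 9 of 15 alternatives, among them the removal of control 1 (adjusted p = 0.32) or control 2 (adjusted p = 0.26), quantile normalization (adjusted p = 0.053) and the replicate block (adjusted p = 0.068). NRP1, on the minus strand of chromosome 10 from 33177492 to 33336262, was at 51.9 and 84.1 TPM in the knockouts against 75.0 and 72.9 TPM in the controls. Knockout 1 was below both controls and knockout 2 above them (log2 fold change -0.16, SE 0.23, 95% interval -0.76 to 0.44, limma adjusted p = 0.65). Its log2 fold change was -0.50 when knockout 2 was left out and 0.18 when knockout 1 was left out. Each estimate then rests on a lone knockout library. The ratio of NRP2 to NRP1 was 1.89 and 1.26 in the knockouts and 1.07 and 1.12 in the controls. NRP1 and NRP2 share 561 and 147 exon bases with an annotated antisense gene. Antisense genes also overlap PDGFB, VEGFC and FGF2, with 0 exon bases shared.

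The knockouts were less alike than the controls in these genes. The absolute log2 difference between knockouts was 0.71 for FGF2, 0.69 for NRP1 and 0.54 for PDGFA, against a median of 0.19 over all genes tested. VEGFB, ADM and NRP2 were nearly the same in both knockouts, at 0.04, 0.10 and 0.11. Between controls the difference was 0.32 for FGF2 and at most 0.12 for the other 9 genes, against a median of 0.10 over all genes tested. VEGFA and VEGFC were higher in knockout 2 by ratios of 1.24 and 1.27, and PGF was higher in knockout 1 by a ratio of 1.30.

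In order of level, ADM and NRP2 came after VEGFA in both knockouts. In both controls the order after VEGFA was PDGFB, NRP2, ADM, NRP1, VEGFB, FGF2, VEGFC, PDGFA and PGF. The control values of NRP2, ADM and NRP1 lay within 72.9 to 81.9 TPM. Those of ADM and NRP1 overlapped between libraries. FGF2 was in ninth place in knockout 1 and the lowest of the 10 genes in knockout 2.

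Sequences upstream of transcription starts are shown for the VEGF family members with the largest ratios, PGF and VEGFC, and for FGF2, the gene that was lower. They come from a set of RefSeq promoter sequences (GRCh38.p14) in which 7 of the 10 genes were matched. VEGFA, PDGFB and NRP1 had no entry in the set used, which says nothing of RefSeq itself. Capitals mark GCGTG, a core bound by the hypoxia-inducible factors, or CACGC where it is on the other strand. The stretches are chr4:176792923-176793172 on the minus strand for VEGFC, chr14:74955785-74956014 on the minus strand for PGF and chr4:122826581-122826707 on the plus strand for FGF2, each read 5′ to 3′ and kept outside the annotated exons of the gene.
VEGFC: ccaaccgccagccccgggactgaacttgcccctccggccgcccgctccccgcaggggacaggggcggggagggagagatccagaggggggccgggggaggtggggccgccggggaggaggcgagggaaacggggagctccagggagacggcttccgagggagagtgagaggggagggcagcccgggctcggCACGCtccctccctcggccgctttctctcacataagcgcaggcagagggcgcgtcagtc
PGF: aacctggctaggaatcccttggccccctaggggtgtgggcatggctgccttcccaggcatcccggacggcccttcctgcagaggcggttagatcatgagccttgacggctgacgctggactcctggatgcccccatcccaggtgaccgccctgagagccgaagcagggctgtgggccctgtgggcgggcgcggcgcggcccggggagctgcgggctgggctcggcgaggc
FGF2: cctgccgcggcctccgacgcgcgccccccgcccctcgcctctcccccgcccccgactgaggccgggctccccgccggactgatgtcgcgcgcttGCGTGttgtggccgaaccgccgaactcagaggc

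The 7 matched genes have 11 annotated starts in that set, and 250 bases before each were searched on both strands. GCGTG was found in 8 of the 11 windows, which belong to 6 genes, and NRP2 had none. Some windows of PDGFA and PGF lie close together or overlap. Of all 35116 windows of the same length 32.2% hold GCGTG. The other core, ACGTG, was in 0 of the 11 windows, against 18.5% of all windows. It can share bases with GCGTG. The AP-1 motif TGANTCA was likewise in 0 of 11, against 6.57%. The GC box GGGCGG was in 11 of 11, against 42.6%. TATAAA was found upstream of ADM only, 27 bases before its start, and is in 10.7% of all windows. A match is a description of letters, and genes that rose and genes that did not both hold GCGTG.

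The receptors of these ligands were mostly at or near 0. FLT1, KDR and FLT4, the VEGF receptors, were at or below 0.230 TPM in every library. CALCRL, the adrenomedullin receptor, was at or below 0.224 TPM, and its partners RAMP1, RAMP2 and RAMP3 and the PDGF receptor PDGFRA were listed at 0 in all 4 libraries. Of 17 receptor genes 6 could be tested, and 0 rose and 3 fell, all of them FGF receptors (median log2 fold change -0.43). Over all genes tested 9.06% rose and 8.67% fell. FGFR2 was at 0.241 and 0.0716 TPM in the knockouts, against 6.13 and 6.45 TPM in the controls (log2 fold change -2.66, SE 0.18, limma adjusted p = 0.0091). FGFR2 reached 1 TPM in the controls only and entered the test through them, which limits what its call can show. Its ratio of means was 40.3-fold lower, and its log2 fold change was -3.38 with a pseudocount of 0.5 and -4.72 with one of 0.1. FGFR4 was at 25.1 and 18.9 TPM in the knockouts, against 49.3 and 46.2 TPM in the controls (log2 fold change -1.10). FGFR3 was at 11.1 and 10.5 TPM in the knockouts, against 15.3 and 15.5 TPM in the controls (log2 fold change -0.48). FGFR1, the most abundant FGF receptor, was at 142 and 109 TPM in the knockouts and 103 and 97.8 TPM in the controls. It did not pass (adjusted p = 0.17). MET, the most abundant receptor listed, was at 207 and 248 TPM in the knockouts and 175 and 183 TPM in the controls. It did not pass (log2 fold change 0.34, adjusted p = 0.083), nor did PDGFRB, which was lower in both knockouts (-0.38, adjusted p = 0.26).

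Class 3 semaphorins bind the neuropilins, and plexins are their signalling partners. Of 12 such genes 8 were tested, and 5 rose and 0 fell (median log2 fold change 0.54). Over all genes tested 9.06% rose and 8.67% fell. SEMA3F, a ligand of NRP2, was at 30.7 and 29.2 TPM in the knockouts, against 3.57 and 4.12 TPM in the controls (log2 fold change 2.68, SE 0.12, limma adjusted p = 0.0057). SEMA3C was at 67.7 and 89.8 TPM in the knockouts, against 15.5 and 13.6 TPM in the controls (log2 fold change 2.35). In both genes all knockout values were several times the control values. The plexin genes PLXNA2 (log2 fold change 1.45), PLXNA3 (0.61) and PLXNA1 (0.47) also rose. PLXNA1 did not pass with the replicate number as a block (adjusted p = 0.051). SEMA3A, at 2.66 and 4.56 TPM in the knockouts and 3.11 and 2.64 TPM in the controls, did not pass.

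Of 15 other angiogenic ligands 5 were tested, and 2 rose and 0 fell (median log2 fold change 0.85). Over all genes tested 9.06% rose and 8.67% fell. FGF5 was at 8.22 and 9.40 TPM in the knockouts, against 3.97 and 2.71 TPM in the controls (log2 fold change 1.19). EGFL7, a secreted factor best known from endothelial cells, was at 70.6 and 95.5 TPM in the knockouts, against 44.7 and 39.5 TPM in the controls (log2 fold change 0.95). ANGPT2, a ligand of TEK, was listed at 0 in all libraries.

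Among 21 genes of ligand processing and heparan sulfate cofactors 18 were tested, and 3 rose and 1 fell (median log2 fold change -0.01). Over all genes tested 9.06% rose and 8.67% fell. FURIN, a protease that cleaves the precursors of VEGFC and the PDGFs, was at 102 and 122 TPM in the knockouts, against 80.8 and 74.0 TPM in the controls (log2 fold change 0.53). SDC1, a syndecan, was at 325 and 337 TPM in the knockouts, against 228 and 228 TPM in the controls (log2 fold change 0.54). SULF2, a heparan sulfate sulfatase, was at 2.96 and 5.10 TPM in the knockouts, against 0.800 and 0.578 TPM in the controls (log2 fold change 1.55, and 2.35 with a pseudocount of 0.1). SULF2 reached 1 TPM in the knockouts only and entered the test through them. The member that fell was SDC2 (log2 fold change -1.16). PAM, the enzyme that amidates adrenomedullin, was at 129 and 115 TPM in the knockouts and 143 and 147 TPM in the controls and did not pass (adjusted p = 0.097).

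Of 15 genes listed as antiangiogenic factors 8 were tested, and 2 rose and 0 fell (median log2 fold change 0.49). Over all genes tested 9.06% rose and 8.67% fell. The listed genes that rose were TIMP2, a metalloproteinase inhibitor (log2 fold change 0.51), and SPRED2, an inhibitor of ERK signalling inside the cell (0.47). THBS1, which encodes the secreted inhibitor thrombospondin, was at 306 and 179 TPM in the knockouts, against 287 and 280.4 TPM in the controls, and COL18A1, the source of endostatin, at 665 and 443 TPM in the knockouts, against 531 and 514 TPM in the controls. Both had a high value in knockout 1 and a low one in knockout 2, and neither passed (adjusted p = 0.47 and 0.86).

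Over these 5 lists 16 of 45 tested genes passed, 12 upwards and 4 downwards, against 9.06% upwards and 8.67% downwards of all genes tested. The lists were chosen with earlier results of these data known, so setting their count against all genes is not a test. The 4 of 18 processing genes and the 2 of 8 antiangiogenic genes that passed are near the 17.7% of all genes that passed in either direction. With no filter on low values 1 of the 16 passed (SEMA3F), at an adjusted p under 0.01 there were 3 (FGFR2, SEMA3C and SEMA3F), and with a variance prior without a trend 9, as EGFL7, FGFR3, PLXNA1, FURIN, SDC2, TIMP2 and SPRED2 did not pass. With the replicate block 13 passed, without PLXNA1, FGFR3 (adjusted p = 0.062) and SPRED2 (0.058). Without control 1 or without control 2, SEMA3C and SEMA3F were the 2 of the 16 that still passed. FGFR3 (adjusted p = 0.053) and SPRED2 (adjusted p = 0.052) also lost their calls without knockout 2, and FGFR3 did so under median-ratio and quantile scaling and with chromosome medians subtracted. FGFR2 and SULF2 reached 1 TPM in 1 group only, so they entered the test through that group, and they could not be tested when a library of it was left out.

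**Figure D4:**
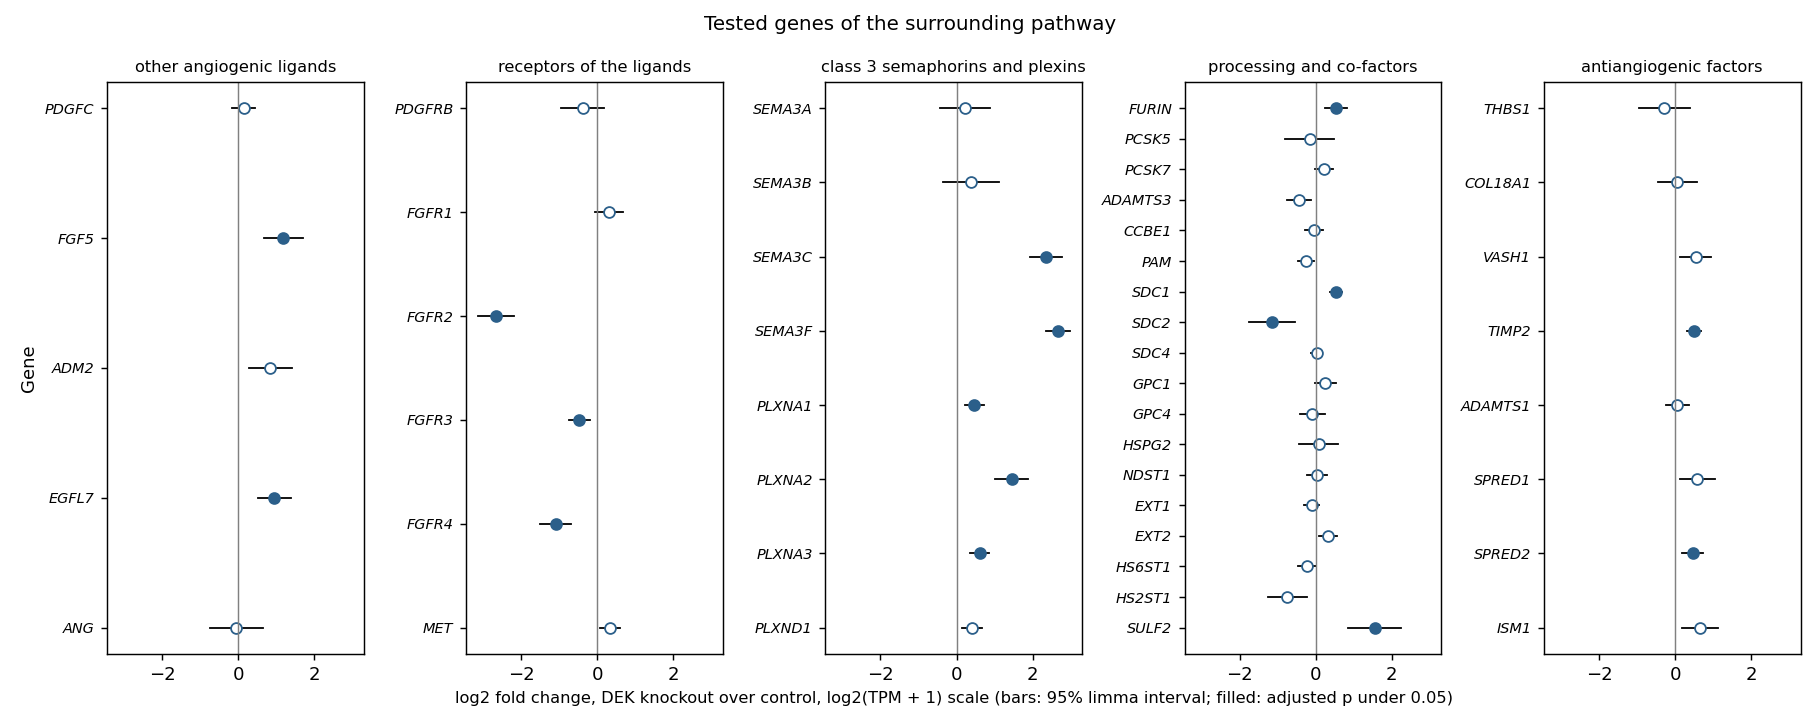
Log2 fold change, DEK knockout over control, of the 45 tested genes of the 5 surrounding lists, on the log2(TPM + 1) scale, with the 95% limma interval as a bar and filled points for adjusted p under 0.05. SEMA3F (2.68) and SEMA3C (2.35) lie farthest to the right and FGFR2 (-2.66, a value that depends on the pseudocount) farthest to the left.

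The genes whose pattern over the 4 libraries was most like that of VEGFA, by Euclidean distance of centred log2(TPM + 1) values, were CYP2S1 (distance 0.015), P3H4 (0.042) and MAP3K9 (0.044). P3H4 was at 65.1 and 78.8 TPM in the knockouts, against 28.5 and 28.5 TPM in the controls, and MAP3K9 at 15.7 and 19.4 TPM in the knockouts, against 6.41 and 6.47 TPM in the controls. CYP2S1 was at 1.32 and 1.87 TPM in the knockouts and below 0.1 TPM in both controls. It passed the filter through the knockouts alone, and its place nearest VEGFA rests on the pseudocount of 1, since its ratio in TPM is far larger than that of VEGFA.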

How the data were processed

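RNA libraries of 4 samples were compared, 2 DEK knockout and 2 control, grouped by their titles. The authors deposited 1 table of TPM, in which each column sums to 1000000. Per the submitters' processing notes the build was hg38 and the tools were STAR 2.7.8a, cutadapt 1.18, DESeq2 1.36.0 and featureCounts 2.0.1, with no role for each. Their annotation, gene lengths and strand setting are not given in the sources. Coordinates and exon lengths are from GENCODE release 29 (GRCh38). The 15815 genes reaching 1 TPM in 2 or more libraries were fitted as log2(TPM + 1) with limma 3.58.1 in R 4.3.3, on group alone, the variance prior following mean expression. The Benjamini-Hochberg threshold was 0.05. The log2 scale understates changes of low genes, and ratios without log2 are of mean TPM. An exact permutation test of 2 against 2 libraries cannot go below p = 0.333 and was not used. Depth was estimated from the steps of low TPM values. With those exon lengths 54.3% to 56.2% of values under 200 reads came within 0.02 of a whole number (4% by chance), so read numbers are approximate and limit precision by counting error only. Mitochondrial genes held 16.4% to 19.0% of TPM.

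All 10 genes were named whatever their values, along with DEK, every member of each list past the threshold (or the most abundant, up to 2, where fewer passed), and the 3 genes nearest VEGFA in pattern. The other genes were named after their values were seen. Members and lists were chosen with earlier results of these data known. The procedure was tested on simulated data with independent noise and changes planted only in genes well above the filter. That test does not cover low genes or replicates that depend on each other. Alternatives covered pseudocounts of 0.1 and 0.5, filters, scaling, chromosome medians, the variance prior, a replicate block, a threshold of 0.01 and leaving out each library.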

Additional observations from a re-analysis of the deposited data

How the results depend on the processing

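The 5 genes called in the set became 1 (PGF) with no filter on low values and 1 at an adjusted p under 0.01, where the numbers over all genes were 26 and 90 instead of 2804. Leaving out single libraries gave 1 to 8 of the 10 genes and 47 to 5510 over all genes, and these fits assume that the lone library varies like the other group. A variance prior without a trend gave 1437 calls over all genes. Without single libraries the log2 fold change ranged from -0.50 to 0.18 for NRP1, -0.087 to 0.45 for PDGFA and -0.27 to 0.013 for PDGFB. The turned signs were uncalled, for NRP1 without knockout 1 and for the others without knockout 2. With the replicate block 5 of the 10 passed, 4 upwards and FGF2 downwards, and 2971 over all genes. Same-numbered libraries deviated together with r = 0.099 across genes, which does not show that the numbers pair them. FGF2 also passed with a filter of 5 TPM (adjusted p = 0.038) and without mitochondrial genes (0.048). With 2 libraries per group, small changes such as that of NRP2 are at the limit of what the spread lets through.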
